A study of Mus musculus with 6 samples.

Results

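The genes examined here are 10 textbook markers of macrophage activation, namely *Arg1*, *Mrc1*, *Retnla*, *Chil3*, *Nos2*, *Acod1*, *Tnf*, *Il6*, *Il10* and *Tgfb1*, out of 57010 annotated genes in the table of raw counts. They are defined by symbol, with no threshold on their values, and 7 of the 10 reached the minimum of 10 counts, added over the 6 libraries, that was set for testing and was met by 15903 genes. They were measured in bone-marrow-derived macrophages (BMDMs), macrophages raised in culture from marrow progenitors by M-CSF (10 ng/ml). The marrow came from 3 *Cx3cr1*GFP mice on a C57BL/6J background, so cells of both groups carried the GFP allele at the *Cx3cr1* locus. For every mouse, adherent cells were sequenced without treatment (unstim, n = 3) and after 24 h in 62 mM excess NaCl (NaCl, n = 3). The labels name no LPS, interferon, IL-4 or other activating stimulus in either group, and no osmolarity control was analysed here, so sodium and osmolarity cannot be told apart. The age and sex of the mice are not given in the sources used here.

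Macrophages take on different programs depending on the signals they meet. Interferon gamma and bacterial products such as LPS drive classical activation, with nitric oxide made by *Nos2*, itaconate made by *Acod1*, and the inflammatory cytokines TNF and IL-6. The cytokines IL-4 and IL-13 act through STAT6 to drive alternative activation, for which arginase (*Arg1*), the mannose receptor CD206 (*Mrc1*), the secreted protein RELM-alpha (*Retnla*) and the chitinase-like protein Ym1 (*Chil3*) are the usual mouse markers. *Il10* and *Tgfb1* encode cytokines that restrain inflammation.

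Total counts were between 8520433 and 20123570 in the unstim libraries and between 4088065 and 11610020 in the NaCl libraries, and the shallowest was NaCl replicate 3, in which 3 counts correspond to 0.719 CPM. CPM are counts divided by the TMM-scaled library size and brought to a common depth. This floor covers counting error only, whereas the 95% intervals given for changes come from edgeR and include the spread between libraries. The cells had the defining genes of macrophages, with *Csf1r*, the M-CSF receptor, at 2083 ± 148 CPM in unstim and 3443 ± 369 CPM in NaCl (SD, n = 3 each). *Lyz2*, which encodes lysozyme and is widely used as a myeloid marker, was at 9817 ± 524 and 19148 ± 3609 CPM. *Mertk*, another of the macrophage genes, was lower in NaCl, at 93.4 ± 19.2 CPM in unstim and 47.3 ± 16.1 CPM in NaCl. In bulk RNA, fewer cells of a kind and less RNA per cell cannot be told apart.

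The question was whether excess NaCl moved BMDMs along the classical or the alternative program. In edgeR's quasi-likelihood test of NaCl against unstim, 0 of the 7 tested members passed an adjusted p of 0.05, where 0.654% of all genes passed. An unadjusted p under 0.05 was reached by 3 members (*Acod1*, *Tnf* and *Tgfb1*), against 12.6% of all genes. With the mouse number as a replicate block, which compares the 2 libraries of each mouse, 3 of the 7 passed: *Mrc1* and *Tgfb1* fell and *Tnf* rose. In that blocked fit 8.90% of all genes passed, 4.60% higher and 4.30% lower. DESeq2 called 0 members without the block, where it called 2.52% of genes, and the same 3 members with it, where it called 5.07%. Without the block but with every gene of at least 1 count tested in edgeR, 2 members passed, *Mrc1* (adjusted p = 4.3e-07) and *Tnf* (adjusted p = 0.0213), so the calls depended on the block and on the filter. That filter also moved the unblocked calls over all genes from 76 higher and 28 lower to 362 and 300. The ranges of *Mrc1* overlapped between the groups, and the cause of its small adjusted p under that filter was not tested. Direction was the same in 3 of 3 mice for 5 of the 7, lower for *Mrc1*, *Arg1* and *Tgfb1* and higher for *Tnf* and *Il10*, against 43.5% of all genes in either direction. The ranges of the groups did not overlap for 1 member, *Tgfb1*, against 19.0% of all genes.

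**Figure D1:**
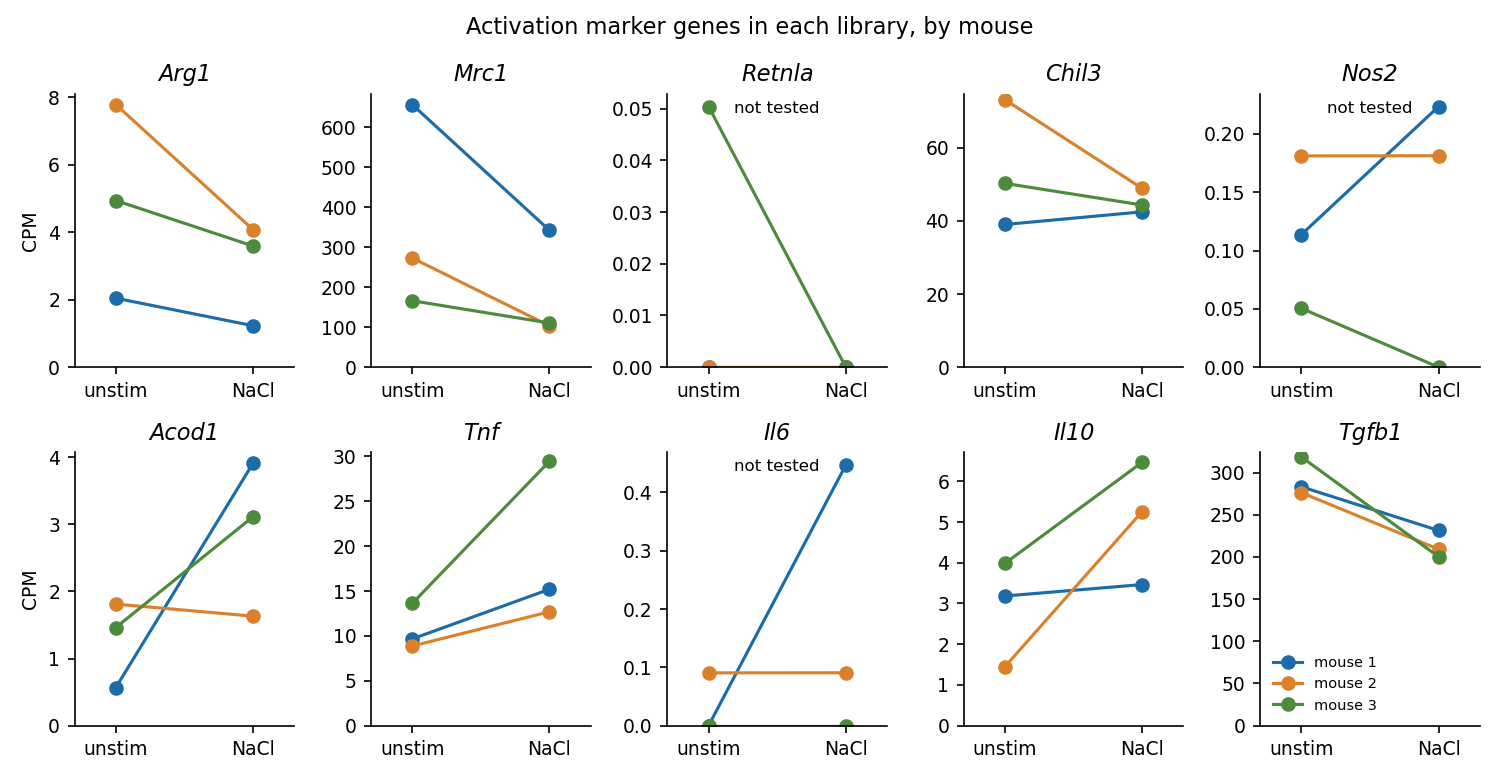
Level in CPM (y axis, linear, from 0 and on its own scale in each panel) of the 10 genes in the unstim and the NaCl library of each mouse, joined by a line in the mouse's color. *Mrc1*, *Arg1* and *Tgfb1* slope down and *Tnf* and *Il10* slope up in 3 of 3 mice, while *Retnla*, *Nos2* and *Il6* rest on 0 to 4 counts a library.

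**Figure D2:**
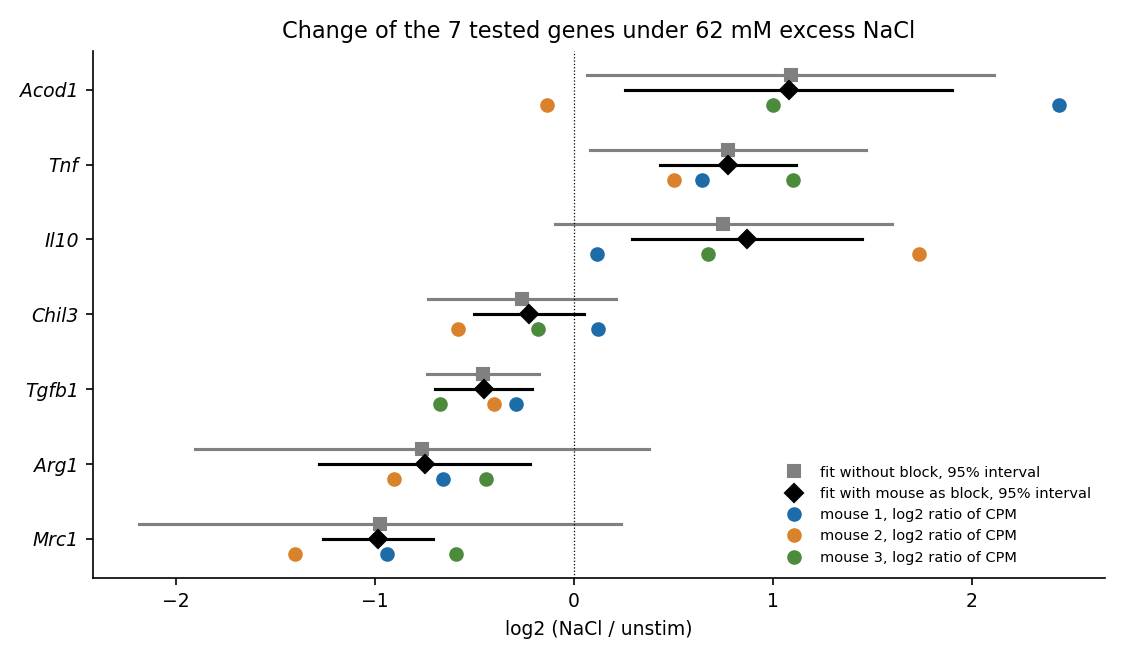
Log2 ratio of NaCl to unstim (x axis) for the 7 tested genes: squares and diamonds are the edgeR estimates without and with the mouse as a block, bars their 95% intervals, and circles the log2 ratio of CPM within each mouse. For *Mrc1* the interval ran from -2.18 to 0.24 without the block and from -1.26 to -0.71 with it.

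For the 3 members that passed in the blocked fit, the 250 bases before the transcription start are shown, read from RefSeq on GRCm38.p6 and written 5′ to 3′. Capitals mark matches on either strand to the kappaB pattern bound by NF-kappaB, which is GGG, then 5 bases of any kind, then CC, to the AP-1 pattern TGANTCA and to TGGAAA, the core recognised by the osmotic regulator NFAT5.

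Mrc1 (chr2:14229164-14229413, + strand): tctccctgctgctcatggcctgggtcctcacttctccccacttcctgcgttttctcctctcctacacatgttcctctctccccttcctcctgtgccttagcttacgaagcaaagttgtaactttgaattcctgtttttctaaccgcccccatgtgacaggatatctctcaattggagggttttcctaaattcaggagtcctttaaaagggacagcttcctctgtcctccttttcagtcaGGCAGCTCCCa
Tgfb1 (chr7:25686752-25687001, + strand): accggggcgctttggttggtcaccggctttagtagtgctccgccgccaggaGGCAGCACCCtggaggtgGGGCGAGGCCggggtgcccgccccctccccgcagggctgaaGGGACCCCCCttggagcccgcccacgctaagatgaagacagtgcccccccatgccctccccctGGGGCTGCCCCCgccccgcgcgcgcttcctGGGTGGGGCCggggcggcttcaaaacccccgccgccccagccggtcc
Tnf (chr17:35202008-35202257, - strand): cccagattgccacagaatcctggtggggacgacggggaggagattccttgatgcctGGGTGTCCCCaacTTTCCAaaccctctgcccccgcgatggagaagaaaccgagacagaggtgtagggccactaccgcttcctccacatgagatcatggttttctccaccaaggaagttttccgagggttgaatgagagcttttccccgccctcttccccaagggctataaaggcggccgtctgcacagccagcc

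The kappaB pattern matched at 1 place before *Mrc1*, at 7 places before *Tgfb1*, some of them overlapping, and at 1 place before *Tnf*, and it matched in 46.0% of 32536 distinct stretches of the same length. The NFAT5 core matched once before *Tnf*, starting at base -181 from the start site, close to the kappaB match that starts at -194, and did not match in the windows of *Mrc1* and *Tgfb1*. It was found in 18.6% of all such stretches, and the AP-1 pattern, with no match in these 3 windows, in 6.73%. The matches describe letters only.

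*Retnla*, *Nos2* and *Il6* were too low to judge, with mean raw counts under 10 in both groups. *Retnla* (chromosome 16) had 1 count in unstim replicate 3 and 0 in the other 5 libraries. The 0 counts over the NaCl libraries allow a level of up to 0.124 CPM. *Nos2* (chromosome 11), the inducible nitric oxide synthase, had 1, 2 and 1 counts in unstim replicates 1, 2 and 3 and 2, 2 and 0 counts in NaCl replicates 1, 2 and 3. *Il6* (chromosome 5) had 0, 1 and 0 counts in unstim and 4, 1 and 0 in NaCl, so 4 of its 6 counts lay in NaCl replicate 1. No difference was detectable at this depth for these 3 genes, whose totals over all libraries were 1, 8 and 6 counts.

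*Mrc1* (ENSMUSG00000026712.4, chromosome 2) encodes CD206, a mannose-binding receptor for endocytosis. It was at 657, 273 and 166 CPM in unstim replicates 1, 2 and 3 and at 343, 103 and 110.4 CPM in NaCl replicates 1, 2 and 3. Every mouse had less in NaCl, yet NaCl replicate 1 was still above unstim replicates 2 and 3, so the groups overlapped. The log2 ratios of NaCl to unstim were -0.94 in mouse 1, -1.40 in mouse 2 and -0.59 in mouse 3. Without the block edgeR put the change at -0.97 on the log2 scale, with a standard error of 0.54 (adjusted p = 0.505). With the block it was -0.98, with a standard error of 0.13 (adjusted p = 1.4e-05), or 1.98-fold lower. The blocked call held when either mouse 1, mouse 2 or mouse 3 was left out, with log2 fold changes from -1.16 to -0.77. In the unblocked fit the value was -0.23 without unstim replicate 1 and -1.77 without NaCl replicate 1.

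The highest *Mrc1* unstim library exceeded the lowest 3.95-fold, and markers of other cells also differed between mice. The summed level of 6 B cell markers was 57.0 CPM in unstim and 59.7 CPM in NaCl for mouse 1, and between 13.9 and 16.1 CPM in the libraries of mice 2 and 3, with 3 of the 6 under 10 counts in total. The 9 monocyte markers summed to 587 and 629 CPM in mouse 1 and to between 328 and 425 CPM in mice 2 and 3. The part of these cells in the level of *Mrc1* was not tested. Without mouse 1 the blocked log2 fold change of *Mrc1* was -0.99 (adjusted p = 6.1e-05 in edgeR).

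*Arg1* (ENSMUSG00000019987.10, chromosome 10), which splits arginine into ornithine and urea, was at 2.05, 7.79 and 4.94 CPM in unstim replicates 1, 2 and 3. In NaCl replicates 1, 2 and 3 it was at 1.23, 4.08 and 3.59 CPM. The NaCl library was the lower in each mouse, by log2 ratios of -0.66, -0.90 and -0.44. The level of mouse 1 was low in both groups, the reverse of its rank for *Mrc1*. *Arg1* passed in neither fit, at -0.76 on the log2 scale without the block (SE 0.51, adjusted p = 0.593 in edgeR) and -0.75 with it (95% interval -1.28 to -0.22, adjusted p = 0.0694). In DESeq2 with the block the adjusted p of *Arg1* was 0.385.

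*Chil3* (ENSMUSG00000040809.11, chromosome 3) was at 39.0, 73.1 and 50.2 CPM in unstim and 42.5, 48.9 and 44.3 CPM in NaCl replicates 1, 2 and 3. It was lower in NaCl in mice 2 and 3 and higher in mouse 1, and the groups overlapped. The estimate for *Chil3* was -0.26 on the log2 scale (SE 0.21, adjusted p = 0.666 in edgeR) and, with the block, -0.23 (95% interval -0.50 to 0.05, adjusted p = 0.354). Without unstim replicate 2 the unblocked value turned to 0.03. A change as large as that of *Mrc1* lay outside the latter interval. Of the 1606 distinct windows of 75 bases in its transcripts, 208 also occur outside this gene, mainly in *Chil4*. Reads from those windows cannot be assigned to 1 gene by sequence alone. The other 9 members share no such window with another gene in GENCODE M21. *Chil3* is also made by neutrophil precursors of the marrow, and 13 neutrophil markers had a total of 354, 657 and 500.1 CPM in unstim and 350.1, 449 and 356 CPM in NaCl. *Chil3* was highest in the library where these markers were highest, unstim replicate 2, and lowest in unstim replicate 1, where their sum was among the lower ones. All 13 had at least 10 counts in total, 4 were lower and 0 higher in the blocked fit, and their part in the level of *Chil3* was not tested.

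**Figure D3:**
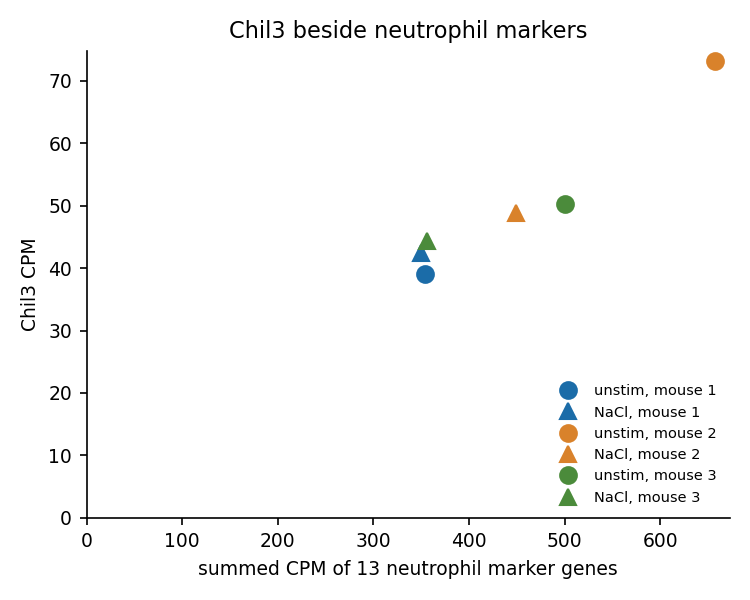
*Chil3* level in CPM (y axis) against the summed CPM of 13 neutrophil marker genes (x axis) in the 6 libraries, with circles for unstim, triangles for NaCl and 1 color per mouse. Unstim replicate 2 stands highest on both axes, at 73.1 and 657 CPM, and the 5 other libraries lie between 39.0 and 50.2 CPM of *Chil3*.

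*Tnf* (ENSMUSG00000024401.15, chromosome 17), the inflammatory cytokine, was at 9.66, 8.88 and 13.6 CPM in unstim replicates 1, 2 and 3. It was at 15.2, 12.7 and 29.5 CPM in NaCl replicates 1, 2 and 3. NaCl replicate 3, the shallowest library, stood apart with 123 counts, and NaCl replicate 2 was below unstim replicate 3. Each mouse was higher in NaCl, by a log2 ratio of 0.64 in mouse 1, 0.51 in mouse 2 and 1.10 in mouse 3. Both fits gave 0.78 on the log2 scale, or 1.71-fold higher, with an SE of 0.31 and an adjusted p of 0.344 in edgeR without the block and an SE of 0.17 and an adjusted p of 0.0028 with it. Without mouse 3 the blocked value was 0.59 and no longer passed (adjusted p = 0.0769), while without mouse 1 or mouse 2 it passed.

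*Acod1* (ENSMUSG00000022126.7, chromosome 14), which makes itaconate from a citric acid cycle intermediate, had between 5 and 35 counts a library. It was at 0.569, 1.81 and 1.46 CPM in unstim and at 3.91, 1.63 and 3.11 CPM in NaCl replicates 1, 2 and 3. Mice 1 and 3 were higher in NaCl, with log2 ratios of 2.44 and 1.00, and mouse 2 was at -0.14. The unblocked estimate was 1.09 on the log2 scale (SE 0.46, adjusted p = 0.366 in edgeR), and the blocked one of 1.08 had a 95% interval from 0.26 to 1.90 and an adjusted p of 0.0922 in edgeR. It passed only without mouse 2 among the blocked fits that left out a mouse, at 1.75 (adjusted p = 0.00108), and was 0.46 without mouse 1 (adjusted p = 0.70). In DESeq2 with the block the adjusted p of *Acod1* was 0.294.

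*Il10* (ENSMUSG00000016529.6, chromosome 1) was at 3.18, 1.45 and 3.99 CPM in unstim and 3.46, 5.26 and 6.47 CPM in NaCl replicates 1, 2 and 3. Each mouse was higher in NaCl, by a log2 ratio of 0.12 in mouse 1, 1.73 in mouse 2 and 0.67 in mouse 3. The increase in mouse 1 amounted to 28 against 31 counts. On the log2 scale edgeR estimated 0.75 (adjusted p = 0.453), and with the block 0.87 (95% interval 0.29 to 1.45, adjusted p = 0.0519), just outside the threshold in edgeR. Without mouse 1 the blocked edgeR value was 1.22 (adjusted p = 0.0091), and without mouse 2 it was 0.45 (adjusted p = 0.446). In DESeq2 with the block *Il10* was further from a call (adjusted p = 0.253).

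*Tgfb1* (ENSMUSG00000002603.16, chromosome 7) encodes the TGF-beta isoform that macrophages make in a latent form. It was at 283, 276 and 319 CPM in unstim and 231, 209 and 200.3 CPM in NaCl replicates 1, 2 and 3. All NaCl libraries lay below all unstim libraries. By mouse, the log2 ratios were -0.29, -0.40 and -0.67. The estimate of -0.45, or 1.37-fold lower, was alike without the block (SE 0.13, adjusted p = 0.165 in edgeR) and with it (SE 0.12, adjusted p = 0.0139). The blocked call was lost without mouse 1 (-0.52, adjusted p = 0.0987) and without mouse 3 (-0.34, adjusted p = 0.201).

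Per kilobase of exon, which allows genes to be set side by side, the order in unstim was *Tgfb1* (58.1 ± 4.50 CPM per kb), *Mrc1* (57.4 ± 40.5), *Chil3* (33.2 ± 10.6), *Tnf* (6.54 ± 1.55), *Arg1* (2.21 ± 1.29), *Il10* (2.19 ± 0.989) and *Acod1* (0.488 ± 0.244). The length used was that of all annotated exons of a gene merged, not of the transcript expressed. Close ranks may therefore depend on this choice. The ranges of *Tgfb1* and *Mrc1*, of *Mrc1* and *Chil3*, and of *Arg1* and *Il10* overlapped between neighbours, whereas *Tnf* lay clear of *Chil3* above it and of *Arg1* below it. In NaCl the order was the same except that *Il10* (3.87 ± 1.15 CPM per kb) stood above *Arg1* (1.33 ± 0.684), and the ranges of these 2 did not overlap. *Retnla*, *Nos2* and *Il6* lay under 0.1 CPM per kb as a mean in either group. The alternative markers thus spanned the whole scale, from *Mrc1* near the top to *Retnla* at 1 count.

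**Figure D4:**
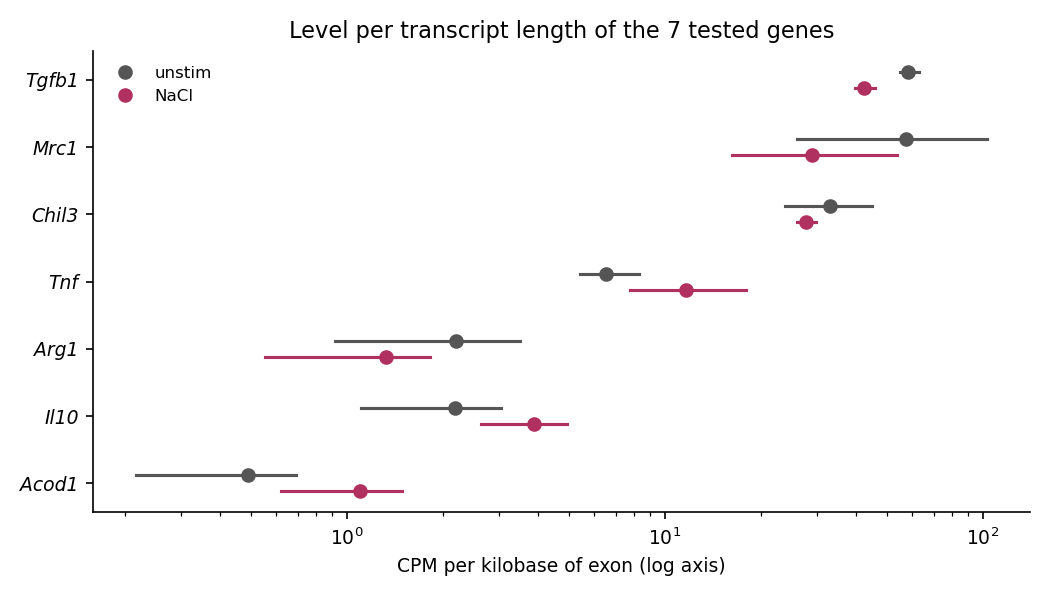
Mean CPM per kilobase of exon (x axis, log scale) of the 7 tested genes in unstim and NaCl, with bars from the lowest to the highest of the 3 libraries. *Tgfb1* and *Mrc1* stood near 58 CPM per kb in unstim and *Acod1* below 1, and *Il10* and *Arg1* changed places in NaCl.

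The receptors for these cytokines were present in both groups. For TNF, *Tnfrsf1a* was at 174 ± 10.1 CPM in unstim and 154 ± 2.46 CPM in NaCl, and *Tnfrsf1b* at 661 ± 79.1 and 564 ± 144 CPM (n = 3 each), with blocked log2 fold changes of -0.17 and -0.25 that did not pass. For IL-6, the shared signalling chain *Il6st* fell in the blocked fit from 178 ± 43.0 to 127 ± 30.0 CPM (log2 fold change -0.49, adjusted p = 0.00623 in edgeR). The ligand-binding chain *Il6ra* was at 98.9 ± 31.3 and 87.1 ± 33.6 CPM and did not pass. For IL-10, *Il10ra* followed the mouse, at 162 and 167 CPM in the unstim and NaCl libraries of mouse 1 and between 50.5 and 76.4 CPM in the others. Its partner *Il10rb* was at 7.87 ± 0.918 and 6.56 ± 2.45 CPM, and neither passed. The TGF-beta receptors *Tgfbr1* (393 ± 53.6 and 312 ± 69.5 CPM) and *Tgfbr2* (130 ± 10.8 and 139 ± 17.0 CPM) did not pass. *Il4ra*, the chain shared by the IL-4 and IL-13 receptors, fell in the blocked fit from 103 ± 14.0 to 74.4 ± 15.5 CPM (log2 fold change -0.48, adjusted p = 0.00926), whereas *Il13ra1* was at 12.4 ± 1.40 and 12.6 ± 3.25 CPM. Without mouse 1 the blocked calls of *Il6st* (adjusted p = 0.134) and *Il4ra* (adjusted p = 0.0773) were lost.

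Of the 38 receptor and signalling genes of the member cytokines, 4 were higher, 3 lower and 31 not past the threshold in the blocked fit. Without the block 0 of the 38 passed in edgeR (5 at an unadjusted p under 0.05), and 1 passed in DESeq2. Their median blocked log2 fold change was 0.04, beside -0.02 for all genes tested. *Zfp36*, whose product promotes the decay of *Tnf* mRNA, rose from 134 ± 27.9 to 249 ± 38.8 CPM with no overlap of the groups (log2 fold change 0.90, adjusted p = 1.1e-04 with the block and 0.0613 without it in edgeR). DESeq2 without the block called *Zfp36* (adjusted p = 8.6e-04). *Maf*, a transcription factor that drives *Il10* in macrophages, fell in the blocked fit from 255 ± 60.3 to 149 ± 58.1 CPM (-0.82, adjusted p = 5.7e-05), and *Nfil3*, a leucine zipper factor, from 10.1 ± 0.311 to 6.70 ± 1.66 CPM (-0.64, adjusted p = 0.0399). *Tgfbi*, a matrix protein gene induced by TGF-beta, rose from 353 ± 74.2 to 503 ± 121 CPM (0.50, adjusted p = 0.00933 with the block). *Socs3* and *Skil* were also higher in the blocked fit. The blocked calls of *Zfp36* and *Maf* held without any 1 mouse and in DESeq2 with the block. That of *Tgfbi* was lost without mouse 1 (adjusted p = 0.0657), that of *Nfil3* without mouse 1 (0.113), without mouse 2 (0.252) and in DESeq2 (0.239), that of *Socs3* without mouse 1 (0.056), without mouse 2 (0.254) and in DESeq2 (0.168), and that of *Skil* without mouse 1 (0.438) or mouse 3 (0.0908).

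Latent TGF-beta is held by binding proteins and released by proteases, integrins and thrombospondin. Besides *Tgfb1*, 15 genes of this process were tested, of which 2 were higher, 4 lower and 9 not past the threshold with the block, and 0 passed without it (5 at an unadjusted p under 0.05 in edgeR, and 5 at an adjusted p under 0.05 in DESeq2). The median blocked log2 fold change was -0.12. *Plau*, the urokinase protease, fell in the blocked fit from 2218 ± 763 to 1081 ± 311 CPM (-1.01, adjusted p = 2.4e-06), *Thbs1*, thrombospondin, from 90.7 ± 54.9 to 44.2 ± 34.9 CPM (-1.12, adjusted p = 1.6e-06), and *Cd36*, a scavenger receptor that binds thrombospondin, from 5424 ± 419 to 3140 ± 840 CPM (-0.82). *Nrros*, which anchors latent TGF-beta on macrophages, was the other gene lower, from 340.0 ± 11.9 to 209 ± 26.0 CPM. *Lrrc32*, its relative GARP, rose in the blocked fit from 3.81 ± 1.35 to 9.04 ± 0.213 CPM (1.29, adjusted p = 3.6e-04), and *Ltbp2*, a latent TGF-beta binding protein, from 1.32 ± 0.814 to 6.85 ± 3.80 CPM. These 6 blocked calls held without any 1 mouse and in DESeq2 with the block. The integrin subunit *Itgav* and the convertase *Furin* did not pass, nor did *Tgfb3*, and *Tgfb2* was not among the genes tested.

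**Figure D5:**
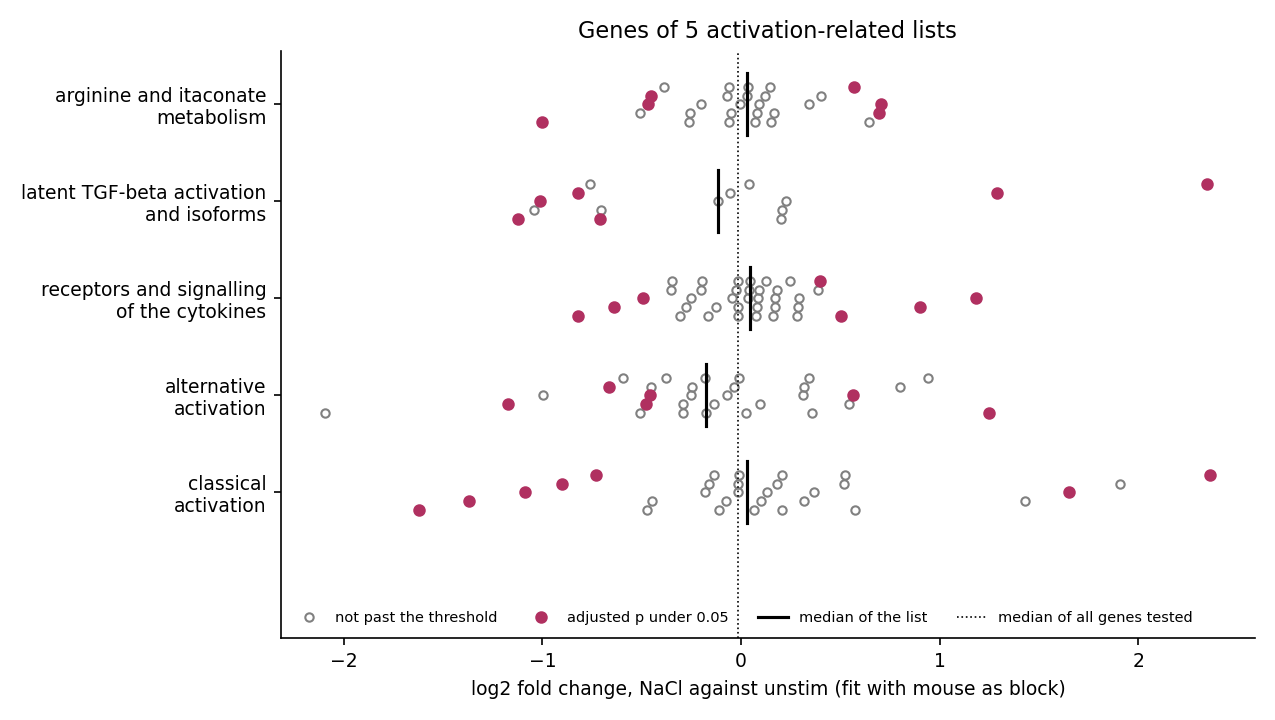
Blocked log2 fold change (x axis) of each tested gene of 5 lists (rows) drawn up around the markers, without the markers themselves. Filled points had an adjusted p under 0.05 in edgeR, black bars are list medians and the dotted line is the median of all genes tested, -0.02; the list medians lay between -0.18 and 0.04.

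Among 30 further genes of classical activation, 2 were higher, 5 lower and 23 not past the threshold with the block, and the median change was 0.03 (log2). The higher genes were *Cxcl10*, an interferon-induced chemokine that went from 0.733 ± 0.153 to 3.91 ± 1.65 CPM, and *Ptgs2*, the inducible cyclooxygenase. DESeq2 without the block called 3 of the 30. In edgeR without the block *Cxcl10* was the only 1 of the 30 called (adjusted p = 0.0340). That call of *Cxcl10* was lost without unstim replicate 2 or 3 or NaCl replicate 2 or 3, with adjusted p-values from 0.0557 to 0.254. The lower genes included 3 co-stimulatory molecules. *Cd80* fell in the blocked fit from 10.8 ± 1.57 to 5.93 ± 1.59 CPM (-0.90, adjusted p = 0.00457), *Cd40* from 12.8 ± 2.44 to 7.69 ± 2.28 CPM (-0.73, adjusted p = 0.00844) and *Cd86* from 5.61 ± 0.717 to 2.64 ± 1.90 CPM. *Cd38*, an ectoenzyme, and *Marco*, a scavenger receptor, were the others. Each of these 5 lower calls was lost when some mouse was left out: *Cd80* without mouse 2 (adjusted p = 0.0616), *Cd40* without mouse 1 (0.0514) or mouse 3 (0.0518), *Cd86* without mouse 3 (0.0546), *Cd38* without mouse 2 (0.256) or mouse 3 (0.0625) and *Marco* without mouse 2 (0.0843). In DESeq2 with the block *Cd80*, *Cd40*, *Cd86* and *Marco* were at adjusted p-values from 0.0536 to 0.0778 and *Cd38* had none, while the blocked calls of *Cxcl10* and *Ptgs2* held in these fits. *Il12a*, *Il12b*, *Il23a*, *Cxcl9* and *Cxcl11* were not among the genes tested.

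Among 31 further genes of alternative activation, 2 were higher, 4 lower and 25 not past the threshold with the block, and the median change was -0.18 (log2). *Atf5*, a stress-responsive transcription factor on this list, was the 1 gene called without the block, and it fell from 44.2 ± 5.82 to 19.3 ± 4.47 CPM (log2 fold change -1.18, standard error 0.19, adjusted p = 0.0384 in edgeR). That call was lost without unstim replicate 2 or 3 or NaCl replicate 2 or 3, with adjusted p-values from 0.0909 to 0.267. In the blocked fit *Il1rn*, the interleukin-1 receptor antagonist, fell from 154 ± 28.0 to 99.0 ± 31.5 CPM (-0.66, adjusted p = 0.00217), and *Flt1*, a receptor for VEGF, from 33.3 ± 16.1 to 23.4 ± 8.27 CPM. *Fn1*, fibronectin, rose from 71.4 ± 27.7 to 110.0 ± 54.8 CPM, and *Cdh1*, E-cadherin, rose from 0.947 ± 0.549 to 2.22 ± 1.14 CPM. The blocked call of *Flt1* (adjusted p = 0.0421) was lost without mouse 1 (0.0591), mouse 2 (0.162) or mouse 3 (0.164) and in DESeq2 with the block (0.183), and that of *Cdh1* (0.0496) without mouse 1 (0.173) or mouse 2 (0.394) and in DESeq2 (0.266). *Stat6*, the factor through which IL-4 acts, had a blocked log2 fold change of -0.07 and did not pass.

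Arginine feeds *Nos2* and *Arg1*, and its transporters moved in opposite directions in the blocked fit. *Slc7a1*, a cationic amino acid transporter, fell from 104 ± 34.8 to 50.9 ± 13.1 CPM with no overlap of the groups (2.01-fold lower, adjusted p = 3.1e-06), and *Slc7a2*, its inducible relative, rose from 34.7 ± 14.4 to 56.8 ± 25.5 CPM (0.70, adjusted p = 6.8e-04). Without the block neither passed in edgeR, with adjusted p-values of 0.149 and 0.501. DESeq2 without the block called *Slc7a1* (adjusted p = 0.0147) and not *Slc7a2* (adjusted p = 0.402). The mitochondrial arginase *Arg2* (0.488 ± 0.118 and 0.772 ± 0.0493 CPM) and *Ass1*, which remakes arginine from citrulline (4.32 ± 0.218 and 4.26 ± 1.66 CPM), did not pass. Of the 28 further genes of arginine and itaconate metabolism tested, 3 were higher, 3 lower and 22 not past the threshold with the block, with a median of 0.03. Without the block 0 of the 28 passed in edgeR (5 at an unadjusted p under 0.05), and 1 passed in DESeq2. The other genes higher were *Ddah2*, which degrades an inhibitor of nitric oxide synthases, from 7.72 ± 0.805 to 12.5 ± 1.15 CPM, and *Idh1*, cytosolic isocitrate dehydrogenase, from 211 ± 48.5 to 314 ± 80.4 CPM. *Slc3a2*, the heavy chain of several amino acid transporters, fell from 408 ± 103 to 298 ± 79.5 CPM. *Azin1*, whose product blocks antizyme, a brake on polyamine synthesis, fell from 478 ± 112 to 342 ± 55.0 CPM. The blocked calls of *Slc7a1* and *Slc7a2* held without any 1 mouse and in DESeq2. That of *Ddah2* was lost without mouse 2 (adjusted p = 0.0541) and in DESeq2 (0.0876), those of *Idh1* (0.0656) and *Azin1* (0.0652) without mouse 1, and that of *Slc3a2* without mouse 1 (0.176) or mouse 3 (0.173). In the blocked fit the share of tested genes called was 21.4% for this list, 40.0% for the TGF-beta list, 23.3% for classical and 19.4% for alternative activation and 18.4% for the receptor list, beside 8.90% of all genes. These shares are descriptive only. The lists were chosen with earlier results of these data known, and all genes were not matched to them for level.

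Markers of other cells were present at lower levels. The summed CPM ranged over the 6 libraries from 328 to 629 for 9 monocyte genes, from 51.6 to 97.7 for 8 eosinophil genes, from 8.07 to 13.4 for 7 basophil or mast cell genes and from 3.63 to 5.80 for 9 dendritic cell genes. It ranged from 5.80 to 12.8 for 9 T or NK cell genes and from 0.671 to 4.79 for 8 stromal genes, of which 6 and 5 had fewer than 10 counts in total. In the blocked fit 2 of 11 macrophage genes were higher (*Lyz2*, also called without the block, and *Csf1r*) and 2 lower. The lower ones were *Mertk* (log2 fold change -1.01, adjusted p = 4.3e-06 in edgeR) and *C1qc* (-0.44, adjusted p = 0.0170). Among other cells, 2 monocyte genes were higher (*Ifitm6*, also called without the block, and *F13a1*), and 1 eosinophil gene was higher and 1 lower. From the T or NK cell list 1 gene was lower, and 0 basophil, dendritic, B cell or stromal genes passed. Their part in the changes of the activation genes was not tested.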

How the data were processed

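RNA of 3 unstim and 3 NaCl libraries was used. Per the labels and methods, 75-base single-end reads from a kit without strand information were trimmed with fastp 0.20.0 and aligned with STAR 2.7.10b, and the authors deposited the raw count per gene. A second deposited table holds a normalized signal, the same counts over the authors' DESeq2 size factors, and served for gene symbols. Because GENCODE vM32, named beside mm10 in the notes, is an annotation of a later build, genes are placed by chromosome only. *Retnla*, *Nos2* and *Il6*, absent from the normalized table, were found in the raw counts by identifier through GENCODE M21.

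Tests used edgeR 4.0.16 on genes reaching 10 counts in total (TMM, glmQLFit, glmQLFTest, NaCl against unstim, R 4.3.3), with Benjamini-Hochberg adjustment over 15903 genes and a threshold of 0.05. Log2 CPM used a prior count of 2. Intervals are at 95%. The mouse number in the labels pairs the samples. After subtracting group means, the unstim and NaCl libraries of mice 1, 2 and 3 correlated across genes at 0.43, 0.15 and 0.22. Unstim and NaCl libraries of different mice correlated at -0.35 to 0.12, so the value of mouse 2 lay close to the highest of these. The replicate block is therefore given beside the unblocked result for each tested member. DESeq2 1.42.0, other scalings, other filters and leaving out libraries or mice were the alternatives. The scripts were tested on simulated data. Members and lists were chosen with earlier results of these data known. Named genes are the members, set receptors and arginine genes, each further list gene past the threshold without the block, and up to 4 a list past it with the block that had a mean of at least 50 counts and 1 direction in 3 mice. *Nrros*, *Ltbp2*, *Cd86*, *Cdh1*, *Stat6* and the other list genes named without full values were added after their values were seen.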

Additional observations from a re-analysis of the deposited data

How the results depend on the processing

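Of 638 values of 40 named genes under 16 alternatives, 491 kept both direction and side of the threshold, 121 kept direction and newly passed, 8 no longer passed and 18 changed sign. Genes higher and lower numbered 76 and 28 without the block. They were 732 and 684 with the replicate block, 245 and 155 with DESeq2, 452 and 354 with DESeq2 and the block, and 362 and 300 when every gene with a count was tested. In the same order of alternatives, 3, 0, 3 and 2 members passed (0 without the block), 7, 3, 2 and 5 classical genes (1), 6, 1, 4 and 3 alternative genes (1), 7, 1, 5 and 2 receptor and signalling genes (0), 6, 5, 6 and 6 TGF-beta genes (0) and 6, 1, 5 and 3 arginine and itaconate genes (0). Other scalings and filterByExpr kept each count within 1.5 times. Leaving out 1 library without the block or 1 mouse with it gave from 8 to 758 genes higher, 0 to 661 lower, and from 0 to 4 members, 0 to 6 classical, 0 to 6 alternative, 0 to 7 receptor, 0 to 7 TGF-beta and 0 to 6 arginine genes. The smallest count of higher genes was without unstim replicate 2. The sign changes were in genes that did not pass. *Ass1* was at -0.0035 with the replicate block and -0.042 with DESeq2 and the block, and *Il13ra1* at -0.0079 with the block and -0.013 when every gene with a count was tested. Leaving out libraries or mice gave -0.25 to 0.27 for *Ass1*, -0.44 to 0.026 for *Chil3*, -0.54 to 0.12 for *Il6ra*, -0.33 to 0.97 for *Il10ra* and -0.24 to 0.27 for *Il13ra1*. The cause of these differences was not tested. NaCl replicate 3, the shallowest library, limits the low genes, with 1235 tested genes at 0 counts.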
